A study of Homo sapiens with 7 samples.

Results

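The BCL2 family genes described here are 10 genes of the mitochondrial cell death pathway. They are the anti-apoptotic genes MCL1, BCL2L1 and BCL2L2, the pro-apoptotic effector BAK1, the BH3-only genes BCL2L11, BID, BAD, BIK and BMF, and BCL2L13. They were chosen by symbol, 10 of the 20072 symbols of the deposited table, of which 20056 had values, and the direct p53 targets BAX, BBC3 and PMAIP1 were left out of the choice.

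All libraries came from HCT116, an established human colorectal carcinoma line, in log phase and in a serum-free medium with EGF, insulin and transferrin. The labels give no genotype and no treatment, and the groups differ in which RNA was read and, for TA, in a cycloheximide step. Transcription rate (TR) was read in 2 GRO-seq libraries, which label and sequence nascent RNA made in a nuclear run-on, mRNA abundance (RA) in 3 RNA-seq libraries, and translation activity (TA) in 2 libraries of mRNA sedimenting with polysomes after cycloheximide, an inhibitor of elongation. The values are RPKM, that is, exonic reads scaled by exon length and library size, so levels can be set side by side between genes. Library sizes recovered from the values ran from 3391897 to 5629982 reads for TR, from 20299018 to 22532134 for RA and from 22421062 to 30805391 for TA. A value of these 10 genes rested on between 65 reads, for BMF in TA replicate 2 (0.607 RPKM, 95% Poisson interval 0.468 to 0.773), and 12258 reads, for MCL1 in TA replicate 1 (97.4 RPKM, 95.7 to 99.1), and such intervals cover counting error only. Marker levels were those of an epithelial culture, and they cannot tell epithelial lines apart. All 8 epithelial markers examined reached 1 RPKM in RA, against 1 of 10 blood, fibroblast and endothelial markers (COL1A1, at 11.5 RPKM). The summed RPKM of the latter 10 markers was 26.8 to 32.1 in TR, 10.5 to 14.3 in RA and 3.60 to 4.99 in TA, none of them at 0 in every library, and its part in the results was not tested.

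Proteins of the BCL2 family decide whether the outer mitochondrial membrane is opened, which releases cytochrome c and starts the caspase cascade. The anti-apoptotic proteins hold the effectors BAK and BAX and the BH3-only proteins in a groove on their surface, and the BH3-only proteins, each answering to its own kind of stress, free or activate the effectors through their BH3 helix. Colorectal carcinoma cells are known to lean on BCL-XL, the main product of BCL2L1, and on MCL1, a protein and an mRNA that both turn over quickly.

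A stretch found in most of these genes is the BH3 core, a leucine, any 3 residues, a small residue (glycine, alanine or serine) and an aspartate. It is shown as coding sequence because it is part of the contact between members. The capitals mark the codons of the leucine, the small residue and the aspartate. Coordinates are hg19 (GRCh37), each stretch lies in a coding exon, and all but BCL2L11 and BIK lie on the minus strand.
MCL1 (chr1:150551347-150551376, leucine 213 of 350 codons): gagaccTTAcgacgggttGGGGATggcgtg
BCL2L1 (chr20:30309731-30309760, leucine 90 of 233): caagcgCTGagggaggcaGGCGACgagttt
BAK1 (chr6:33543170-33543199, leucine 78 of 211): cggcagCTCgccatcatcGGGGACgacatc
BCL2L11 (chr2:111907674-111907703, leucine 152 of 198): caagagTTGcggcgtattGGAGACgagttt
BID (chr22:18222187-18222216, leucine 90 of 195): aggcacCTCgcccaggtcGGGGACagcatg
BAD (chr11:64039100-64039129, leucine 114 of 168): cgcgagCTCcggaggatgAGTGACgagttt
BIK (chr22:43523716-43523745, leucine 61 of 160): ctgcggCTGgcctgcatcGGGGACgagatg
BMF (chr15:40396402-40396431, leucine 137 of 184): cgaaagCTTcagtgcattGCAGACcagttc

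Of these 8 genes, 6 carried a glycine codon at the small residue, BAD a serine codon and BMF an alanine codon. BID held a further match at leucine 25. BCL2L2 and BCL2L13 had no match to these letters, which says only that these letters are not in their coding sequence. The pattern is short, and 37.4% of the 13064 expressed genes with a canonical coding transcript hold at least 1 match, or 22.7% of the 7016 whose coding sequence is no longer than that of BCL2L13, the longest here.

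Genes of the same role lay far apart in level, and the order of the mean levels was not the same in TR, RA and TA. In TR, MCL1 and BAD stood far above the rest, at 116 ± 10.6 and 109 ± 10.01 RPKM (SD, n = 2), and their ranges overlapped. BIK, BID and BCL2L1 followed at mean TR of 33.8, 27.9 and 24.8 RPKM, the ranges of the latter pair overlapping. BCL2L11, BCL2L13, BCL2L2 and BAK1 lay between 19.4 and 12.5 RPKM, each apart from its neighbor, and BMF was lowest at 5.44 ± 1.24 RPKM. These are bulk cultures, in which fewer expressing cells and less RNA per cell cannot be told apart.

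In RA, BCL2L1 and MCL1 led with overlapping ranges, at 88.4 ± 27.3 and 66.8 ± 7.89 RPKM (SD, n = 3), and BAD came next at 31.6 ± 4.65 RPKM. BID, BCL2L13, BCL2L2, BIK and BAK1 formed a run from 24.9 to 8.34 RPKM in which each neighbor overlapped the next. BCL2L11 (6.19 ± 1.33 RPKM) and BMF (1.68 ± 0.660 RPKM) lay apart below them. In TA, MCL1 was highest at 86.3 ± 15.7 RPKM and BCL2L1 came next at 51.0 ± 15.2 RPKM (SD, n = 2), without overlap. BIK, BID, BAD and BCL2L13 overlapped in turn between 20.9 and 14.6 RPKM, and BCL2L2, BAK1, BCL2L11 and BMF lay from 7.04 down to 0.847 RPKM, with overlap only between BAK1 and BCL2L11. Against all expressed genes, BAD stood above 97.8% by TR, 81.4% by RA and 68.1% by TA, while BCL2L1 stood above 72.1%, 94.8% and 88.7%.

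**Figure D1:**
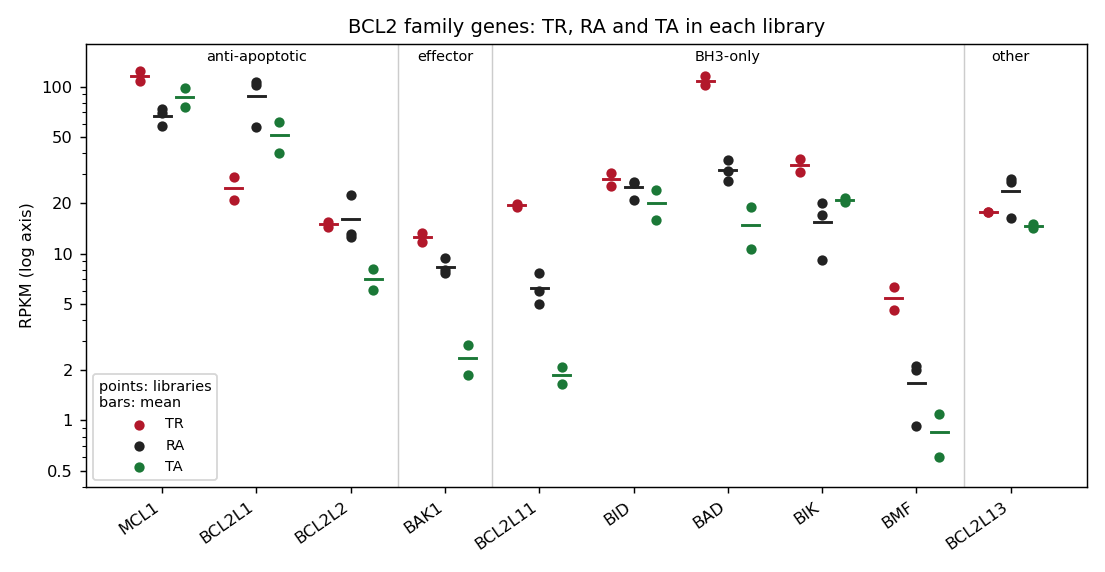
RPKM (log axis) of each of the 10 genes in each library, with TR in red, RA in black and TA in green; points are libraries and bars are means, and genes are ordered by role. MCL1 was at 57.9 RPKM or more in every library, and BCL2L1 was lowest in TR. The values of BCL2L11, BAD and BAK1 were lower, without overlap, in each step from TR to RA to TA.

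The spread among the 10 genes was wider in RA and TA than in TR. Their log2 levels had an SD of 1.36 and 1.35 for TR, of 1.55, 1.68 and 1.92 for RA, and of 2.10 and 2.22 for TA, so the libraries of the 3 parameters did not overlap. The highest gene exceeded the lowest, always BMF, by 23.7 and 19.5 times in TR, by 36.5, 48.0 and 114 times in RA and by 89.6 and 124 times in TA, so on this measure RA and TA overlapped. Over all expressed genes above 0 the SD moved in the same order, from 1.53 and 1.54 in TR through 2.53 to 2.55 in RA to 2.96 in both TA libraries, and no test was made on the 10 genes, which are not replicates.

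RA against TR within a gene, the stability index log2(RA/TR), asks how much steady-state mRNA stands for a given rate of transcription. Of the 10 genes, BCL2L1 was higher in RA than in TR and MCL1, BCL2L11, BAD, BIK and BMF were lower (limma, Benjamini-Hochberg adjusted p under 0.05 over 14305 expressed genes), and 4 did not pass. Among all genes tested, 19.2% were higher and 48% lower, so 5 of 10 lower is near the background. The median over the 10 genes was -0.69 and that over all genes -0.58, on the scale of log2(RPKM + 0.1). RPKM is relative to each library's total, so the zero point of this index is a matter of scaling. Centering each library on its median added 0.67 to every gene's difference, after which 2 genes were higher (BCL2L1 and BCL2L13) and 2 lower (BCL2L11 and BAD), against 35.4% and 33.7% of all genes.

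Among the anti-apoptotic genes, BCL2L1 had the highest stability index of the 10. It lies at chr20:30252255-30311792 on the minus strand of hg19. Its TR was 28.8 and 20.9 RPKM, its RA 56.9, 102 and 106 RPKM, and its TA 40.2 and 61.7 RPKM. Every RA library was above both TR libraries, with RA replicate 1 well below the others. The index was 1.79 ± 0.32 (SE; limma adjusted p = 0.00147), a 3.56-fold higher mean RPKM, which was above 96.8% of all genes tested, and after centering it was 2.46 (adjusted p = 0.000184). The lncRNA ABALON lies on the opposite strand over 36.7% of the exons of BCL2L1, and since no strand setting is stated for the counting, sense and antisense reads cannot be told apart.

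MCL1 (chr1:150533371-150552214, minus strand) had TR of 108 and 123 RPKM and RA of 73.1, 69.3 and 57.9 RPKM. All RA libraries were below both TR libraries, a 1.73-fold difference of the means. The index was -0.80 ± 0.20 (limma adjusted p = 0.00761), but this was close to the median of all genes, 45.1% of which were lower, and after centering it was -0.12 (adjusted p = 0.618). Without TR replicate 2 the uncentered call was lost (-0.70, adjusted p = 0.0598). BCL2L2, which encodes BCL-W, had TR of 15.5 and 14.4 RPKM and RA of 13.1, 22.4 and 12.6 RPKM. Its ranges overlapped, with RA replicate 2 standing above the rest, and its index was 0.05 ± 0.28 (adjusted p = 0.89).

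The effector BAK1, which forms pores in the outer membrane, had TR of 11.7 and 13.3 RPKM and RA of 9.35, 8.01 and 7.65 RPKM. RA lay below TR in every library, and the index of -0.58 ± 0.24 (limma adjusted p = 0.0574) did not pass the threshold. Its value was that of the median gene. The call was gained without RA replicate 1 (-0.66, limma adjusted p = 0.0465) and with a pseudocount of 1 (-0.53, adjusted p = 0.0357). It was also gained in a fit of the RA and TR libraries alone (-0.58, adjusted p = 0.0326). Without TA replicate 1 or 2 the index was likewise -0.58, and after centering it was 0.09 (adjusted p = 0.731).

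Of the BH3-only genes, 4 of 5 were called lower in RA than in TR, and 2 of them after centering, beside 48% and 33.7% of all genes tested. BCL2L11 (chr2:111876955-111926021, plus strand) encodes BIM, which binds all anti-apoptotic members. Its TR was 19.1 and 19.8 RPKM and its RA 7.63, 4.99 and 5.94 RPKM, so the groups were well apart. Its mean TR was 3.14-fold above its mean RA, and the index was -1.66 ± 0.24 (limma adjusted p = 0.000408), or -0.98 after centering (adjusted p = 0.00498). BAD (chr11:64037302-64052176, minus strand), the sensitizer held off by phosphorylation and 14-3-3 proteins, had TR of 102 and 116 RPKM and RA of 36.5, 27.2 and 31.1 RPKM. Its index of -1.79 ± 0.26 (limma adjusted p = 0.00043), a 3.44-fold lower mean, was the lowest of the 10, and it stayed at -1.11 after centering (adjusted p = 0.00346). Of all genes tested, 27.79% had a lower index than BAD and 29.37% a lower one than BCL2L11. BAD shares 33.8% of its exons with GPR137 on the opposite strand, with mean TR of 23.3 RPKM, RA of 4.61 RPKM and TA of 2.11 RPKM, and reads of the pair cannot be told apart where they overlap.

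BIK and BMF were called lower with less margin. Of all genes tested, 36.74% had a lower index than BIK and 28.88% a lower one than BMF. BIK had TR of 30.6 and 36.9 RPKM and RA of 9.15, 20.1 and 17.1 RPKM, and BMF, a BH3-only protein tied to the cytoskeleton, had TR of 4.57 and 6.32 RPKM and RA of 2.0, 2.13 and 0.926 RPKM. The groups did not overlap in either gene, although RA replicate 1 of BIK and RA replicate 3 of BMF lay well below the other RA libraries. The index was -1.19 ± 0.31 for BIK (limma adjusted p = 0.00992) and -1.70 ± 0.41 for BMF (adjusted p = 0.00617), and neither passed after centering (-0.52, adjusted p = 0.176, and -1.03, adjusted p = 0.0542). Without TR replicate 2 both calls were lost (BIK -1.06, adjusted p = 0.116; BMF -1.47, adjusted p = 0.0915), leaving 2 of the 10 genes lower, and without TR replicate 1 that of BIK was lost (-1.33, adjusted p = 0.0618).

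BID, which caspase-8 cleaves to carry the death receptor signal to mitochondria, had TR of 25.4 and 30.5 RPKM and RA of 27.0, 21.0 and 26.6 RPKM. The ranges overlapped and the index was -0.17 ± 0.22 (limma adjusted p = 0.523). BCL2L13, a mitophagy receptor that carries BH domains, had TR of 17.8 RPKM in both libraries and RA of 16.4, 28.1 and 26.8 RPKM. RA replicate 1 lay below TR and the others above it, and the index was 0.38 ± 0.25 (adjusted p = 0.207). Without that library it was 0.62 (adjusted p = 0.00892), and after centering all libraries it was 1.05 (adjusted p = 0.00565).

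**Figure D2:**
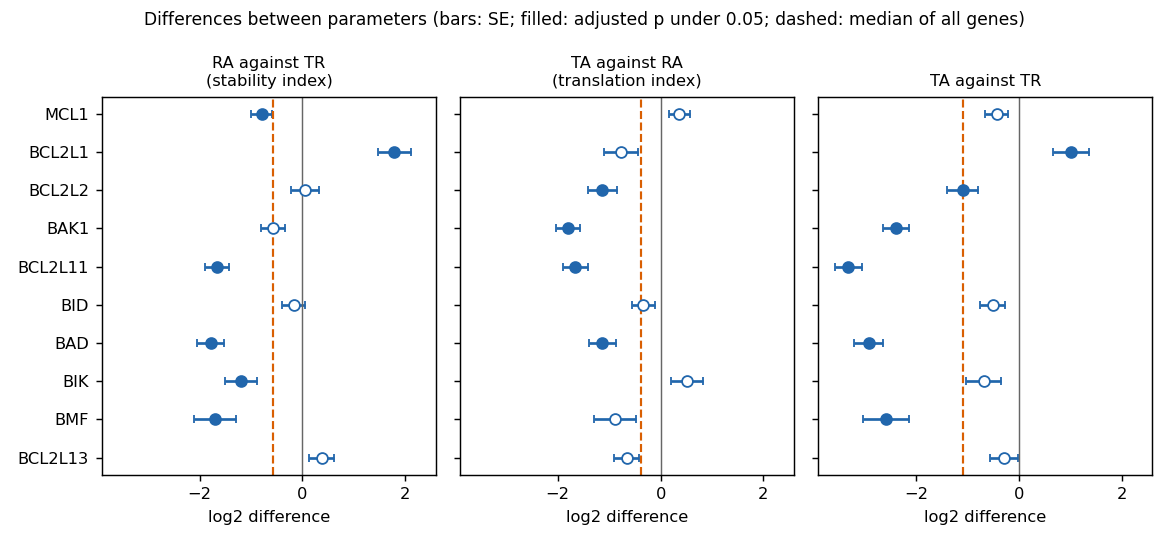
Log2 difference of each gene (x axis, log2(RPKM + 0.1)) for RA against TR, TA against RA and TA against TR. Bars are standard errors, filled points have a limma adjusted p under 0.05, the solid line is 0 and the dashed line is the median of all 14305 genes; BCL2L1 lay far to the right of the dashed line in the outer panels, and BAK1 and BCL2L11 far to the left of it in the middle panel.

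TA against RA, the translation index log2(TA/RA), asks how much of an mRNA was found with polysomes. It uses the same RA libraries as the stability index, so the indices are not independent of each other. No gene of the 10 was higher in TA than in RA, BAK1, BCL2L11, BCL2L2 and BAD were lower, and 6 did not pass, while 6.66% of all genes tested were higher and 29.2% lower. The limma-voom test on recovered reads also called none higher, and at an unadjusted p under 0.05 the count of higher genes was 0. The median over the 10 genes was -0.83, against -0.37 over all genes. Centering added 0.50 to every difference, after which MCL1 and BIK were higher and BAK1 and BCL2L11 lower, against 19% and 9.81% of all genes.

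BAK1 had the lowest translation index of the 10. Its TA was 1.87 and 2.85 RPKM, below each of the 3 RA libraries, and its mean RA was 3.54-fold its mean TA. The index of -1.80 ± 0.24 (limma adjusted p = 0.00322) had 2.41% of all genes tested below it and stayed at -1.30 after centering (adjusted p = 0.00637). BCL2L11 followed, with TA of 1.65 and 2.10 RPKM, also below every RA library. Its index was -1.66 ± 0.24 (adjusted p = 0.00371), a 3.30-fold lower mean, with 3.67% of all genes below it, and -1.16 after centering (adjusted p = 0.00939). Both genes kept these calls under each alternative that gave a value. The annotation holds processed pseudogenes of BAK1, BAK1P1 and BAK1P2, and the lncRNA MIR4435-2HG crosses 14.3% of the exons of BCL2L11 on the opposite strand, and GGNBP1 crosses 4.19% of those of BAK1, so part of their reads may be assigned with uncertainty.

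BCL2L2 and BAD were called lower with less margin. BCL2L2 had TA of 8.04 and 6.05 RPKM and BAD TA of 10.7 and 19.1 RPKM, below every RA library of the same gene. The index was -1.14 ± 0.28 for BCL2L2 (limma adjusted p = 0.0175) and -1.13 ± 0.26 for BAD (adjusted p = 0.0138), and neither passed after centering (-0.63 in both, adjusted p = 0.137 and 0.0866). The call of BCL2L2 was lost without TA replicate 2 (-0.93, adjusted p = 0.0967), without either TR replicate, which changes only the estimate of the spread (-1.14, adjusted p = 0.0577), and in a fit of the RA and TA libraries alone (adjusted p = 0.0578), and that of BAD without TA replicate 1 (-0.72, adjusted p = 0.0884). The readthrough gene BCL2L2-PABPN1 shares 16.7% of the exons of BCL2L2 on the same strand and is listed at 0 in all libraries.

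MCL1 and BIK stood at the upper end. MCL1 had TA of 97.4 and 75.2 RPKM, and both exceeded every RA library. Its index was 0.36 ± 0.20 (limma adjusted p = 0.185), above 84.4% of all genes, and 0.87 after centering (adjusted p = 0.0186). BIK, a BH3-only protein of the endoplasmic reticulum, had TA of 20.4 and 21.4 RPKM, likewise above every RA library, with an index of 0.51 ± 0.31 (adjusted p = 0.237), above 89.0% of all genes, and 1.01 after centering (adjusted p = 0.0459). Their direction relative to RA thus held in each pair of libraries, while a call depended on the centering.

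The other 4 genes did not pass in either scaling. BCL2L1 had an index of -0.77 ± 0.32 (limma adjusted p = 0.0978), its TA range overlapping the low RA replicate 1, and without that library the index was -1.06 (adjusted p = 0.02). BCL2L13 had TA of 14.3 and 15.0 RPKM, below each RA library, the nearest being RA replicate 1 at 16.4 RPKM, with an index of -0.66 ± 0.25 (adjusted p = 0.0694), or -0.90 without RA replicate 1 (adjusted p = 0.00778). BMF had TA of 1.09 and 0.607 RPKM, which overlapped its RA, and the antisense gene BMF-AS1 crosses 9.83% of its exons. It had an index of -0.88 ± 0.41 (adjusted p = 0.124), or -1.24 without RA replicate 3 (adjusted p = 0.0432). BID had TA of 16.0 and 23.9 RPKM, also overlapping, and an index of -0.33 ± 0.22 (adjusted p = 0.276) that was 0.17 after centering (adjusted p = 0.576).

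TA against TR compares the ends of the path without the RA libraries in the difference. BCL2L1 was higher in TA, and BCL2L2, BAK1, BCL2L11, BAD and BMF were lower, against 17% and 57.5% of all genes tested, and 4 genes did not pass. The median of the 10 was -0.89 and that of all genes -1.08. With the libraries centered, which added 1.17, BCL2L1, MCL1, BID and BCL2L13 were higher and BAK1, BCL2L11, BAD and BMF lower, against 38% and 35.3%.

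The lowest differences were those of BH3-only genes and BAK1. The mean TR of BCL2L11 was 10.4-fold its mean TA (-3.32 ± 0.26, limma adjusted p = 1.02e-05), that of BAD 7.31-fold (-2.92 ± 0.28, adjusted p = 3.31e-05) and that of BMF 6.43-fold (-2.58 ± 0.44, adjusted p = 0.000896). BAK1 differed by -2.38 ± 0.26 (limma adjusted p = 5.94e-05). Of all genes tested, 19.85% had a lower difference than BCL2L11, 23.19% than BAD, 26.77% than BMF and 29.19% than BAK1. These 4 remained lower after centering, at -2.14, -1.74, -1.41 and -1.21. BIK, with -0.68 ± 0.34 (adjusted p = 0.104), and BID, with -0.51 ± 0.25 (adjusted p = 0.0936), did not pass. BIK passed without RA replicate 1 (limma adjusted p = 0.00977) and in a fit of the TA and TR libraries alone (adjusted p = 0.0183). BID was at -0.80 without TA replicate 2.

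BCL2L1 was higher in TA by 1.02 ± 0.36 (limma adjusted p = 0.0298), and by 2.19 after centering (adjusted p = 0.000529). The uncentered call was lost without TR replicate 1 (1.25, adjusted p = 0.0732), TR replicate 2 (0.79, adjusted p = 0.21) or TA replicate 2 (0.71, adjusted p = 0.166). BCL2L2, at -1.09 ± 0.31 (adjusted p = 0.0116), lost its call without the same libraries (-1.04, -1.14 and -0.89, adjusted p = 0.0866, 0.0691 and 0.0688) and was at 0.09 after centering. MCL1 differed by -0.43 ± 0.22 (adjusted p = 0.104) and BCL2L13 by -0.28 ± 0.27 (adjusted p = 0.366), and after centering they were higher by 0.74 and 0.89 (adjusted p = 0.0179 and 0.0174).

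Summed by role, the anti-apoptotic genes stood higher relative to the pro-apoptotic ones in RA and TA than in TR. Their summed RPKM was 152 and 158.5 in TR, 143, 194 and 176 in RA, and 146 and 143 in TA, so it overlapped between the parameters. The summed RPKM of the 5 BH3-only genes was 181 and 209 in TR, 82.2, 75.4 and 81.6 in RA and 49.8 and 67.1 in TA, without overlap. The ratio of anti-apoptotic to pro-apoptotic RPKM, BAK1 included among the latter, was 0.790 and 0.712 in TR, 1.56, 2.33 and 1.98 in RA and 2.82 and 2.04 in TA. It was thus below 1 in both TR libraries and above 1 in the other 5, but this rested on BAD, whose reads may include those of GPR137. It also holds for the chosen genes only. Family genes outside the choice were not summed, among them BAX, BBC3 and PMAIP1 (mean RA of 42.8, 28.5 and 68.6 RPKM) and BCL2 (1.11 RPKM). BAX, BBC3 and PMAIP1 are pro-apoptotic, and adding them would lower the ratio in every library. A ratio above 1 thus need not hold for the whole family. Among the chosen genes with BAD left out, a choice made after seeing the data, the ratio was 1.67 and 1.48 in TR, 2.6, 3.45 and 3.03 in RA and 3.56 and 2.81 in TA. It was above 1 throughout and lowest in the TR libraries. The BH3-only sum without BAD was 79.7 and 93.5 RPKM in TR, 45.8, 48.2 and 50.5 in RA and 39.1 and 48.1 in TA, so RA and TA then overlapped. BAD alone made up 28.0% and 29.0% of the summed RPKM of the 10 genes in TR, against 14.5%, 8.91% and 10.6% in RA and 5.05% and 8.36% in TA, and these ratios within a library do not depend on its scaling.

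The ratio of MCL1 to BCL2L1 was higher in both TR libraries than in any other library. MCL1 exceeded BCL2L1 by 3.76 and 5.90 times in TR, was 1.28, 0.679 and 0.547 times its level in RA, and exceeded it by 2.42 and 1.22 times in TA. The ratio overlapped between RA and TA, with TA replicate 2 just below RA replicate 1, and in RA replicate 1 MCL1 exceeded BCL2L1 as in TR and TA. The ratio is given as a description, and no test was made on it.

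**Figure D3:**
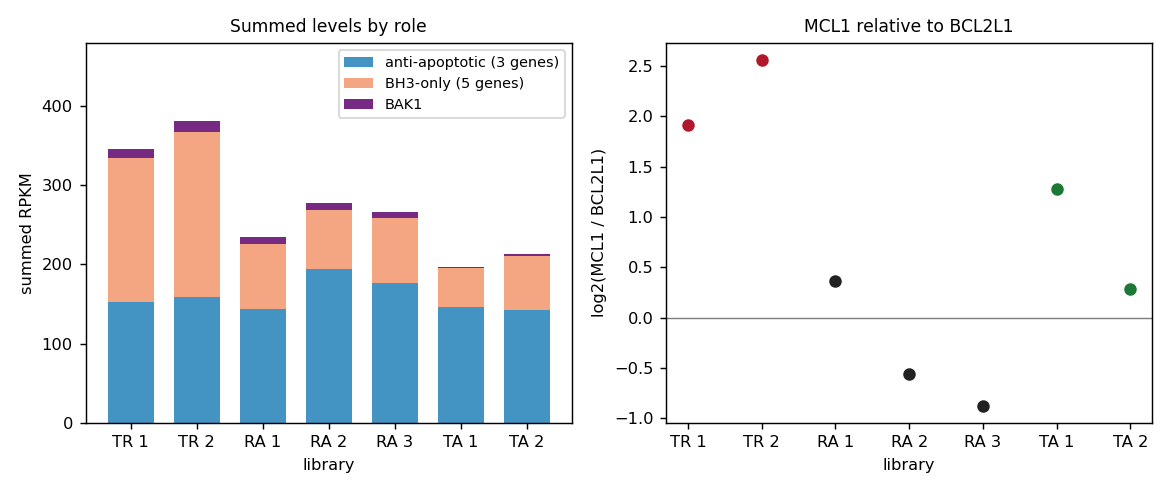
Left, summed RPKM in each library of the 3 anti-apoptotic genes, the 5 BH3-only genes and BAK1, stacked from 0; right, log2 of the ratio of MCL1 to BCL2L1 in each library. The BH3-only part was 181 and 209 RPKM in TR and at most 82.2 RPKM elsewhere, and the ratio was highest in the TR libraries (1.91 and 2.56) and below 0 in RA replicates 2 and 3.

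Most of these mRNAs had a short coding sequence and a large share of untranslated region (UTR), traits that the choice of genes did not use, with BCL2L13 an exception in the former and BAD and BIK in the latter; no test was made on the group. In the canonical transcripts of GENCODE 44 lifted to GRCh37, the coding sequence was 483 to 702 bases in 8 of the 10 genes, 1053 in MCL1 and 1458 in BCL2L13, against a median of 1375.5 bases over the 13064 expressed genes. UTRs made up 88.3% of the mRNA of BCL2L11, 88.2% of BMF, 83.5% of BCL2L2, and 70.6% to 73.3% of BCL2L13, BAK1, BCL2L1, BID and MCL1. In BAD and BIK, whose 3′ UTRs are 379 and 407 bases, the share was 45.4% and 49.2%, and the median over the expressed genes was 49.4%. The longest 3′ UTRs were those of BCL2L11 (4213 bases), BMF (3897) and BCL2L13 (3321), against a median of 1192. The exon lengths behind the deposited RPKM ran from 953 bases for BIK to 6212 for BCL2L11, so they need not describe the same transcripts.

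**Figure D4:**
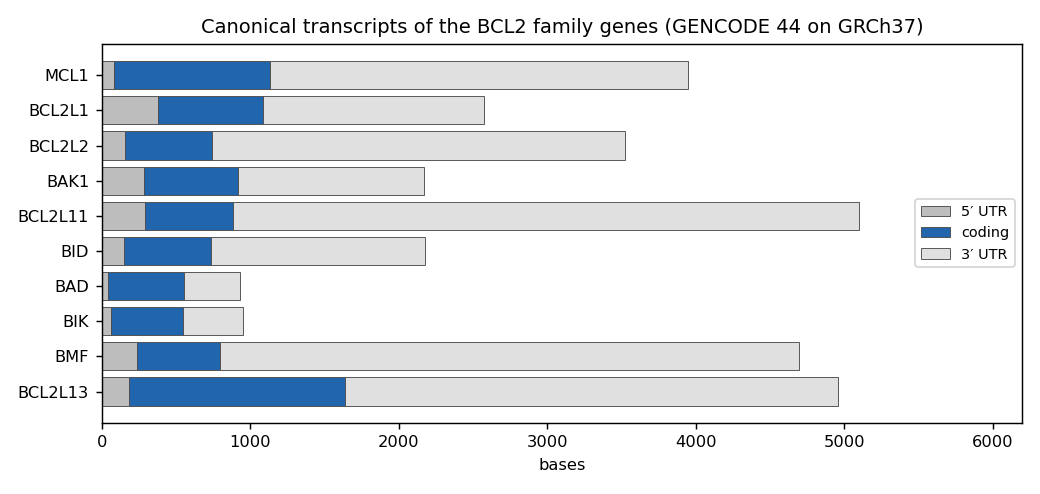
Length in bases (x axis) of the 5′ UTR, coding sequence and 3′ UTR of the canonical transcript of each gene. BCL2L11 and BMF are mostly 3′ UTR (4213 and 3897 bases), while BAD and BIK, with 3′ UTRs of 379 and 407 bases, are the shortest.

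The pentamer ATTTA, a core letter group of AU-rich elements that mark short-lived mRNAs, was counted on the transcript strand of each 3′ UTR, overlapping matches included. MCL1 held 10 matches (3.55 per kb, above 80.2% of expressed genes). BCL2L11 and BCL2L13 held 8 each (1.90 and 2.41 per kb, above 54.7% and 63.8%), and BCL2L2 and BMF held 5, BCL2L1 3, BID 2, BIK 1 (2.46 per kb in its short 3′ UTR), and BAK1 and BAD none. At least 1 match was present in 69.4% of the expressed genes, with a median of 1.635 per kb. The densest stretches of 30 bases in MCL1 and BCL2L11 are shown, with the pentamers in capitals. These 2 genes had the most matches among the members called lower in RA than in TR. This count grows with the length of the 3′ UTR. BAD, with the lowest stability index, held none, and BCL2L13, not called lower, held 8. A link between matches and the index was not tested. A match is a description of the letters and not a site.
MCL1 (chr1:150548698-150548727, minus strand): catttgacctaATTTAactggtgaaATTTA
BCL2L11 (chr2:111924663-111924692, plus strand): aatattgtatATTTAttttctgcttATTTA

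At the start codon, the bases around ATG are known to affect how often ribosomes begin there, a purine at -3 and a G at +4 being favorable. The contexts of MCL1 and BCL2L1, the most abundant mRNAs here, and of BAK1 and BCL2L11, which had the lowest translation indices, are shown, with the start codon in capitals and the base at +4 last.
MCL1 (chr1:150552003-150552015, minus strand): cgactggcaATGt
BCL2L1 (chr20:30310018-30310030, minus strand): attataaaaATGt
BAK1 (chr6:33545378-33545390, minus strand): acctgaaaaATGg
BCL2L11 (chr2:111881314-111881326, plus strand): aaagaccaaATGg

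BAK1, with the lowest translation index, had both the purine and the G, as did BID and BMF and 45.8% of expressed genes. MCL1, BCL2L1, BAD and BIK had the purine only, and BCL2L11, BCL2L2 and BCL2L13 the G only. Upstream ATG triplets were found in the 5′ UTRs of BCL2L1 and BAK1 (3 each) and BCL2L2, BCL2L11 and BCL2L13 (1 each), none were found in the other 5, and 40.4% of expressed genes have at least 1.

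Other genes of the pathway were followed as 7 lists, of which 1 holds the rest of the family. Their counts stand beside 19.2% higher and 48% lower of all genes tested in RA against TR, 6.66% and 29.2% in TA against RA, and, after centering, 35.4%, 33.7%, 19% and 9.81%. Of those 11 genes 8 were tested, and BCL2A1, BCL2L10 and BCL2L15 did not reach 1 RPKM. In RA against TR none was higher (limma; also 0 at an unadjusted p under 0.05 and by limma-voom) and 3 were lower, BCL2L14, HRK and BBC3, with a median of -0.66, and after centering BCL2L14 and HRK were lower. The count of lower genes was 6 without RA replicate 1 and 5 with no filter, and 1 where 1 RPKM was required in each parameter. In TA against RA again none was higher in any of these tests and 2 were lower, with a median of -0.48. They were BOK, an effector relative of BAK1 (-1.45 ± 0.22, adjusted p = 0.00404), and BCL2 (-1.41 ± 0.33, adjusted p = 0.0147), and after centering BOK alone, the count being 4 without RA replicate 1 and 1 without TA replicate 1. BCL2 itself was low, with mean TR of 1.98 RPKM, RA of 1.11 RPKM and TA of 0.349 RPKM. The p53 targets BAX, BBC3 and PMAIP1 had stability indices of -0.28, -0.98 and -0.29 (adjusted p = 0.215, 0.00671 and 0.415), and none passed in the translation index. All 8 were lower in TA than in TR, beside 57.5% of all genes tested. After centering 4 were lower and 1 higher, beside 35.3% and 38%. The uncentered count of lower genes was 7 by limma-voom and 5 where 1 RPKM was required in each parameter.

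Downstream of the mitochondria, 2 of 14 apoptosome, caspase and inhibitor genes were higher and 5 lower in RA against TR, with a median of -0.30, beside 19.2% and 48% of all genes tested, and 3 were higher and 0 lower after centering. Of these, 2 were lower without TR replicate 1 and 3 without TR replicate 2 or RA replicate 3, and 1 was higher without TR replicate 1 or 2 or RA replicate 2 or 3. In TA against RA 2 were higher and 4 lower, with a median of -0.80, and 2 and 2 after centering, and none was higher without TA replicate 1. DIABLO, which relieves the inhibitors of apoptosis, was higher (0.81 ± 0.17, limma adjusted p = 0.0108), and APAF1, the scaffold of the apoptosome, and XIAP, a caspase inhibitor, were lower (-1.61 ± 0.27, adjusted p = 0.00495, and -1.28 ± 0.20, adjusted p = 0.00403). Of 8 tested genes of the mitochondrial outer membrane and of proteins released or exchanged at mitochondria, 5 were higher and 2 lower in RA against TR, and 1 was higher in TA against RA, with medians of 1.18 and 0.27. After centering, 5 were higher in each and 1 was lower in RA against TR. Without TR replicate 1 or 2, 1 was lower there, and in TA against RA 3 were higher without RA replicate 1 and none without RA replicate 3 or either TA replicate. SLC25A6, the remaining gene of that list, is listed at 0.

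Genes that act on the members were mixed. In the death receptor pathway upstream of BID, 4 of 10 were lower in RA against TR, near the 48% of all genes tested and 2 without TR replicate 1, with a median of -0.56, the lowest being CFLAR, an inhibitor of caspase-8 (-2.43 ± 0.25, limma adjusted p = 6.04e-05). None was higher there or in TA against RA, also at an unadjusted p under 0.05 and by limma-voom, while without RA replicate 1 there was 1 in each. After centering, 3 were higher and 3 lower in RA against TR, and 4 higher and 0 lower in TA against RA. CFLAR was the only gene of that list called in TA against RA (-1.01 ± 0.25, adjusted p = 0.0184), a call lost after centering and without RA replicate 3, TA replicate 1 or TA replicate 2, and the list's median there was 0.21. Of 5 ubiquitin ligase and deubiquitinase genes for MCL1, TRIM17 alone was called in RA against TR, at a mean of 13.0 RPKM in TR and 0.0422 RPKM in RA, and the medians of the list were 0.10 and -0.26. None of the 5 was called in TA against RA by limma, against 2 lower at an unadjusted p under 0.05 and 1 lower by limma-voom. With the libraries centered, 3 were higher and 1 lower in RA against TR, and 1 higher and 0 lower in TA against RA. In RA against TR 1 was higher without TR replicate 1, and in TA against RA 1 was lower without RA replicate 1.

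Of 15 genes for kinases of BAD and 14-3-3 proteins, 7 were higher and 3 lower in RA against TR, with a median of 0.39, beside 19.2% and 48% of all genes tested, and 2 were higher and 2 lower in TA against RA, with a median of 0.04, beside 6.66% and 29.2%. After centering, 10 were higher and 2 lower, and 4 higher and 1 lower, beside 35.4% and 33.7%, and 19% and 9.81%. In TA against RA, none was higher without either TR or either TA replicate and 1 without RA replicate 2 or 3, and 1 was lower without either TR replicate, RA replicate 3 or TA replicate 1. YWHAE, a 14-3-3 gene, was higher in RA than in TR (2.33 ± 0.22, limma adjusted p = 3.67e-05), and AKT2, a kinase, was lower in TA than in RA (-1.53 ± 0.17, adjusted p = 0.00258), with the same calls after centering. Of 6 partners and regulators of BIM and BMF, 2 were higher in RA than in TR and 2, FOXO1 and FOXO3, lower, with a median of 0.52. None of the 6 was called in TA against RA, where the median was -0.29, against 1 lower at an unadjusted p under 0.05 and 1 by limma-voom. After centering, 4 were higher in RA against TR, neither FOXO1 nor FOXO3 was called, and 1 was higher in TA against RA. In RA against TR 1 was lower without either TR replicate, and in TA against RA 1 was lower without RA replicate 3.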

How the data were processed

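Log-phase HCT116 cells gave 2 GRO-seq libraries for TR, 3 RNA-seq libraries for RA and 2 polysome libraries for TA. The authors mapped reads with TopHat at default parameters to hg19, used HTSeq-count for exonic reads, and deposited the result as RPKM per gene and library; the submitters' processing notes also name CASAVA. The counting mode, strand setting and annotation are not given in the sources used here, and versions of these tools neither. An mRNA kit was used for RA and TA, and the sequencing lanes of the libraries are not named.

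Members were matched by symbol. The members and lists were chosen with earlier results of these data known. Library sizes and reads were recovered from the RPKM values, 100% of which came out as whole reads within 0.001. A gene was tested if its mean reached 1 RPKM in TR, RA or TA (14305 genes, all 10 members among them). The test was limma (version 3.58.1, R 4.3.3, eBayes trend) on log2(RPKM + 0.1), fitted to the 7 libraries jointly, with p-values adjusted by Benjamini-Hochberg over all genes tested and a threshold of 0.05. Pathway genes named are, for each list, at most the 2 highest and 2 lowest called genes without overlap between libraries, and any gene of the family list. The paper calls the replicates biological and the labels name no cultures, so p-values measure the spread between these libraries. Libraries with equal replicate numbers showed little or no positive correlation across genes, so they were not paired in the test, and any other pairing was not tested. No batch could be examined. Alternatives covered pseudocounts of 0.01 and 1, filters, centering, the libraries in the fit, a replicate block, limma-voom on recovered reads and each library left out. Transcripts came from GENCODE 44 lifted to GRCh37, and plots were drawn with matplotlib 3.10.9. Some genes of the pathway lists are not reported here by name.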

Additional observations from a re-analysis of the deposited data

How the results depend on the processing

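With a pseudocount of 0.01, no filter, or limma-voom on recovered reads, all 30 differences of the members kept their direction and side of the threshold, and with a pseudocount of 1, 29 of 30 did. Requiring at least 1 RPKM in each parameter, which leaves BMF without a value and tests fewer genes, gave 3656 genes lower in RA against TR and 4935 lower in TA against TR. Centering each library on its median moved most counts. In RA against TR 5066 genes were higher, with 2 members higher and 2 lower. In TA against RA 2713 genes were higher and 1404 lower, with 2 members higher and 2 lower. In TA against TR 5436 were higher and 5044 lower, with 4 members higher. Centering also turned BAK1 (0.093) and BID (0.50) in RA against TR, BID (0.17) in TA against RA, and MCL1 (0.74), BCL2L2 (0.086), BID (0.67), BIK (0.49) and BCL2L13 (0.89) in TA against TR, by its own construction as a constant shift.

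The correlation across 14305 genes of replicate 1 minus replicate 2 was 0.085 for TR with RA, -0.505 for RA with TA and 0.0094 for TR with TA. Libraries with equal replicate numbers thus showed little or no positive correlation on this measure, which used replicates 1 and 2 only. By the negative value, RA replicate 1 varied with TA replicate 2 rather than with TA replicate 1. Whether any of these libraries share a culture or a batch was not tested. A replicate block by number joins the RA and TA libraries against that relation. It gave 109 genes higher and 1387 lower in TA against RA, with 2 members lower. The calls of MCL1 in RA against TR (-0.70) and of BCL2L2 and BAD in TA against RA (-1.28 and -1.14) were lost in it.

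Leaving out 1 library gave 1845 to 2791 genes higher and 5423 to 6968 lower in RA against TR, 198 to 1030 and 1803 to 4228 in TA against RA, and 1937 to 2601 and 7168 to 8472 in TA against TR. Members higher numbered 1 to 2, 0 to 0 and 0 to 1 in these comparisons, and members lower 2 to 6, 3 to 6 and 4 to 6. BCL2L2 in RA against TR lay between -0.22 and 0.20, turning without TR replicate 2 (-0.0026) and without RA replicate 2 (-0.22). The shallow TR libraries and groups of 2 or 3 libraries limit the precision.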
